A study of Mus musculus with 96 samples.

Results

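Ribosomal subunit assembly factors are proteins that fold, cut and modify the precursor of ribosomal RNA and fit ribosomal proteins onto it without staying in the finished ribosome. In this account they are 59 genes, chosen by symbol from the 24057 rows of the expression table, of which 32 act on the small subunit, 25 on the large subunit and 2, Ddx21 and Mybbp1a, on both or on RNA polymerase I. All 59 were found in the table and all 59 passed the filter on low values, which kept 11980 genes, with enough cells within each condition alone. The cells were EL4, a T cell lymphoma line labelled C57BL/6 (C57BL/6 N in the study's methods), and each cell was sequenced on its own after capture on the Fluidigm C1 system. WT1 and WT2 carried a short hairpin RNA against luciferase (shLuc), and CTCFKD1 and CTCFKD2 a hairpin against Ctcf (shCTCF), the gene of the chromatin insulator protein CTCF. The study's methods list 2 hairpins against Ctcf without naming the culture of each, so whether the hairpin differed between CTCFKD1 and CTCFKD2 along with the experiment is not known here. All 4 cultures had been infected with a viral vector and sorted for GFP before capture. WT1 and CTCFKD1 came from the initial experiment (experiment 1), WT2 and CTCFKD2 from a second knockdown (experiment 2). Of 24 cells sequenced per culture, 24, 23, 24 and 24 were kept in WT1, WT2, CTCFKD1 and CTCFKD2. Each culture was captured on its own circuit, so that circuit and culture cannot be told apart, and the culture, with 2 per condition, was the replicate.

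Ribosomal RNA of both subunits, except for a small RNA of the large subunit, is transcribed in the nucleolus as a single precursor. The small subunit processome, built around the U3 small nucleolar RNA from the UTP-A, UTP-B and Mpp10 complexes and many single proteins, assembles on the precursor as it is made, and a later set of factors trims the end of the small subunit RNA in the cytoplasm. Large subunit precursors are handled by other factors, among them the PeBoW complex, Brix domain proteins, RNA helicases and GTPases that join and leave in order. These genes are known to be expressed together in dividing cells, and many are targets of Myc, which binds the E-box sequence CACGTG with its partner Max.

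Levels were given as TPM, in which reads are scaled by gene length and by the total of the cell. Whole reads recovered from the TPM values gave a median of 247586 reads per cell in WT1, 230477 in WT2, 234260 in CTCFKD1 and 131098 in the culture labelled CTCFKD2, in which single genes are therefore measured least precisely. At an equal depth of 80000 reads per cell the median number of genes detected was 4174.5 in WT1, 3983 in WT2, 5242 in CTCFKD1 and 5240 in the culture labelled CTCFKD2, so cells of both CTCF-KD cultures held more detected genes in general. Mean Ctcf was 60.3 ± 76.8 TPM in WT1, 37.1 ± 45.5 in WT2, 15.96 ± 27.4 in CTCFKD1 and 44.9 ± 50.01 in the culture labelled CTCFKD2 (± SD over cells). Ctcf was thus lower in CTCFKD1 than in WT1 but not lower in CTCFKD2 than in WT2, and in these cells its label is not borne out by Ctcf. The study reports that Ctcf mRNA by RT-qPCR and CTCF protein by Western blot were reduced in both shCTCF populations. Those assays of the sorted populations were not analysed here. All 7 T cell markers found in the table (of 8 listed) were detected, with a summed level of 7747 TPM in WT1, 8211 in WT2, 5670.0 in CTCFKD1 and 5778 in the culture labelled CTCFKD2. Markers of B cells, myeloid cells, erythroid cells, fibroblasts and epithelial cells summed to at most 4.13 TPM per list in any culture, with Ms4a1, Lyz2, Hbb-bs and Epcam at 0 in all cells.

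Levels of assembly factors were higher in CTCF-KD than in WT cultures for most of the genes, in both experiments, although no single gene passed the test across all genes. The median log2 change of the 59 genes was 1.12, against 0.038 over all 11980 genes tested, on the scale of log2(mean TPM + 1). It was 1.10 in experiment 1 and 1.08 in experiment 2. For 43 of the 59 genes both CTCF-KD cultures lay above both WT cultures, which was so for 19.9% of all genes tested. Only Urb2 and Ddx51 had both CTCF-KD cultures below both WT cultures (16.9% of all genes), and for the other 14 genes the cultures of the conditions overlapped. The difference was positive in both experiments for 50 genes (30.1% of all genes) and negative in both for 2 (26.7%). In experiment 1 alone 53 genes were higher in CTCFKD1 (51.7% of all genes), and in experiment 2 alone 54 were higher in the culture labelled CTCFKD2 (49.5%). The test with limma called none of the 11980 genes (0.0%) at a threshold of 0.05 after adjustment, and no assembly factor had an adjusted p below 0.585. Before adjustment, 19 assembly factors had a p under 0.05, all higher in CTCF-KD, against 4.79% of all genes higher and 912 genes in either direction. With the replicate block, in which the number of the culture pairs the experiments, the adjusted test again called none and 33 assembly factors had an unadjusted p under 0.05 with a higher level (7.66% of all genes). When the culture value was the average of log2(TPM + 1) among its cells in place of the log2 of the mean, limma called 44 genes higher (0.367%), and 7 of them were assembly factors, namely Imp4, Nob1, Noc4l, Nop16, Nop2, Ppan and Wdr74. No gene was called by limma on that scale once the slope on genes detected per cell was removed (smallest adjusted p = 0.0915). In that fit 30 assembly factors had an unadjusted p under 0.05, all higher in CTCF-KD, against 11.8% of all genes in either direction. On that scale the median log2 change was 2.17 for the assembly factors and 0.23 over all genes.

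**Figure D1:**
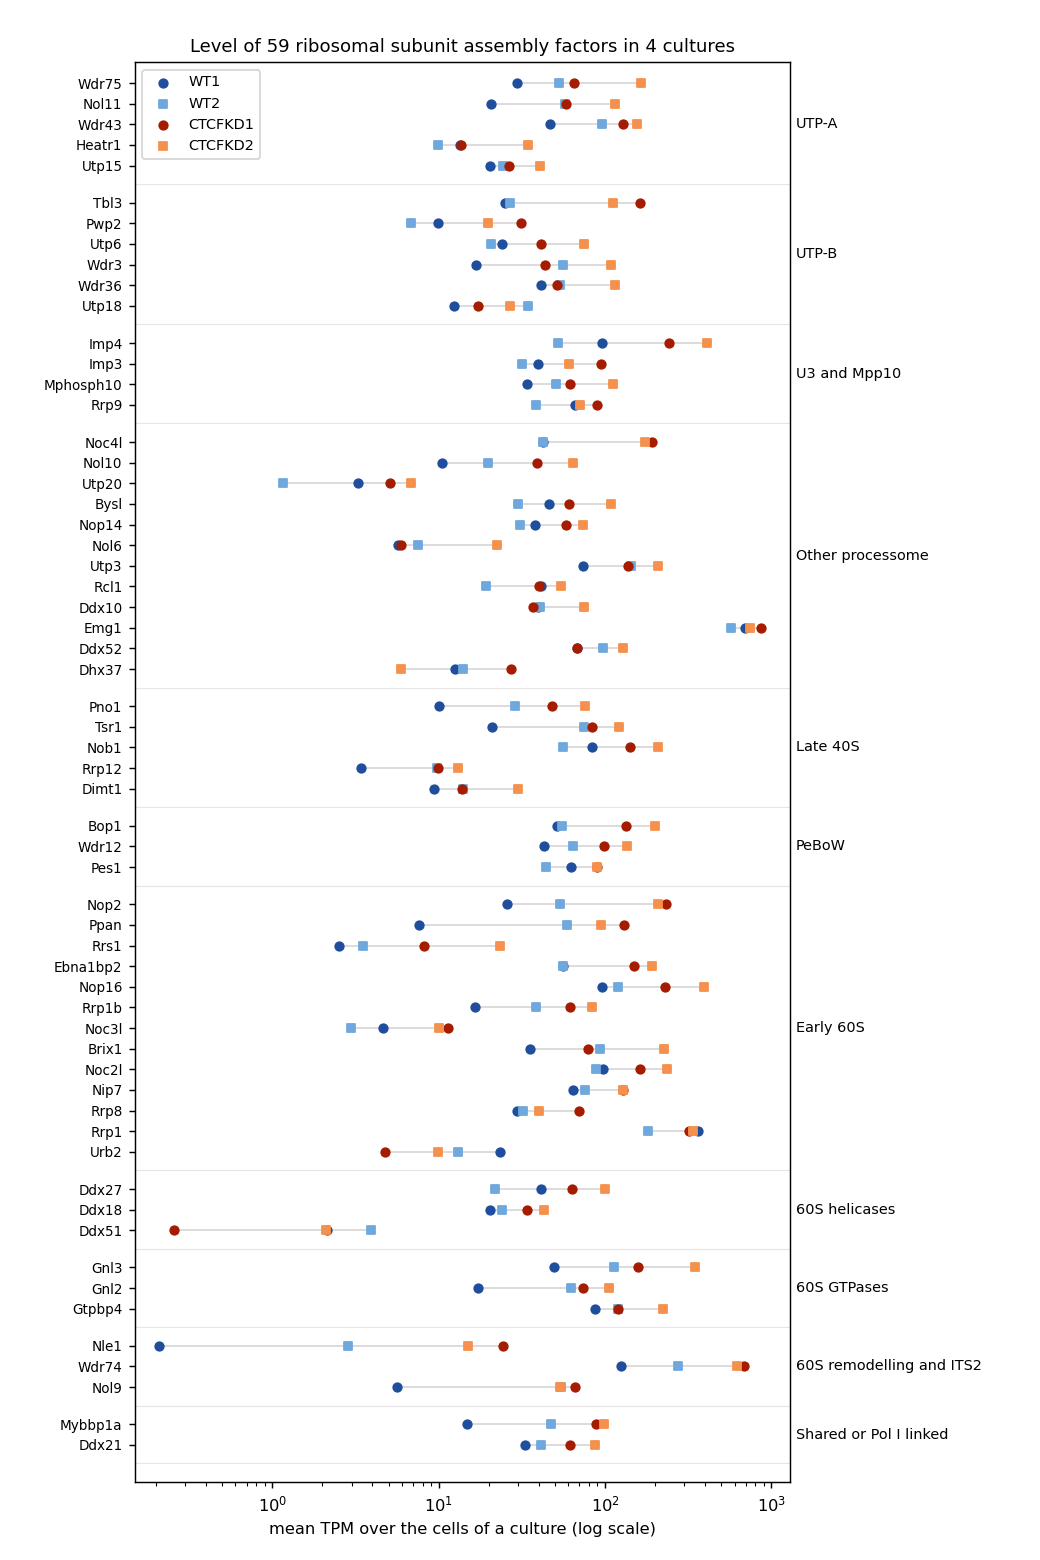
Mean TPM over the cells of each culture (log scale) for the 59 genes, ordered by step of assembly and, within a step, by log2 change. Blue marks are WT1 (circles) and WT2 (squares), red and orange marks CTCFKD1 (circles) and the culture labelled CTCFKD2 (squares). In 43 genes both CTCF-KD marks lie to the right of both WT marks, and in Urb2 and Ddx51 to the left.

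Plotting the difference of experiment 2 against that of experiment 1 put 50 of the 59 genes in the upper right quadrant. The order of the cultures also differed within conditions. Levels were higher in WT2 than in WT1 for 40 genes (56.2% of all genes tested) and higher in the culture labelled CTCFKD2 than in CTCFKD1 for 45 (57.1%). The median difference was 0.31 between the WT cultures and 0.54 between the CTCF-KD cultures on the log2 scale, both smaller than the median of 1.12 between conditions. With 2 cultures per condition an exact permutation test of any single gene cannot give a p below 0.333.

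**Figure D2:**
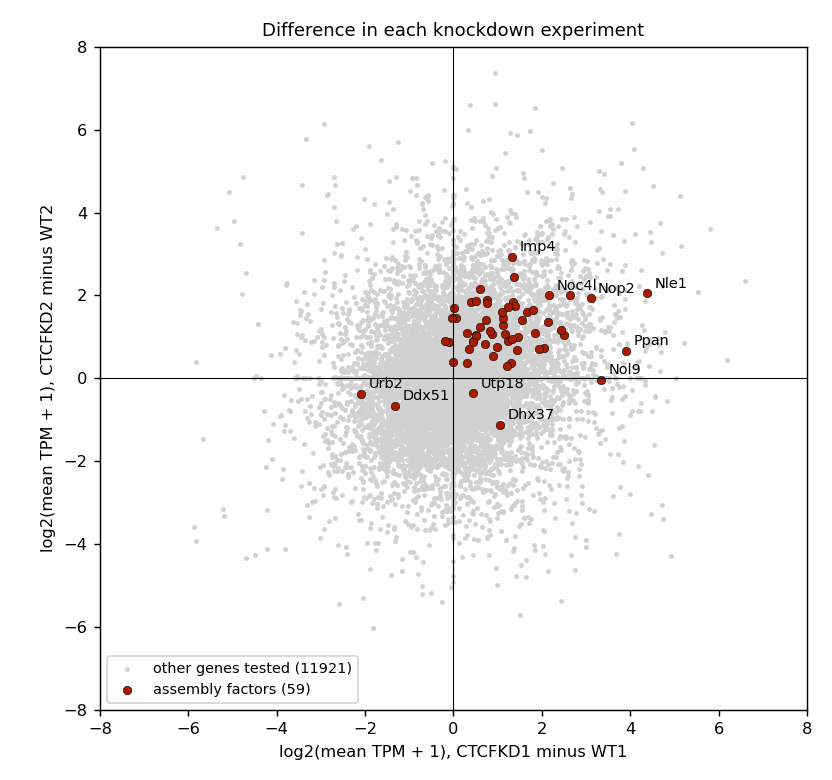
Difference in log2(mean TPM + 1) between CTCFKD1 and WT1 (x axis) and between the culture labelled CTCFKD2 and WT2 (y axis), for 11921 other genes (grey) and 59 assembly factors (red). Most red points lie above and to the right of 0, and Urb2 and Ddx51 lie below 0 on both axes.

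By subunit, 22 of the 32 small subunit factors (68.8%) lay higher in each CTCF-KD culture than in each WT culture. Of the 25 large subunit factors 19 did (76%). Over all genes tested 19.9% lay higher in this way and 16.9% lower. These shares are the background of the counts by promoter, step and strand overlap below. The median log2 change was 1.03 for the small and 1.38 for the large subunit factors. The difference between the subunits was not tested. Other assembly factors outside the 59, such as Utp4, Bms1 and the exosome genes, comprised 71 genes, all tested. Both WT cultures lay under both CTCF-KD cultures in 41 of them (57.7%) and over both in 2 (2.82%). Their median log2 change was 0.83, and none was called. The 82 cytosolic ribosomal protein genes, the structural proteins of the finished ribosome, were near all genes in these shares. Of the 78 tested, 13 lay higher in each CTCF-KD culture than in each WT culture (16.7%, against 19.9% of all genes). Another 10 lay lower in this way (12.8%, against 16.9%), and the median log2 change was -0.059. The differences between these lists were not tested.

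Promoters were read for the 51 of 59 assembly factors found in a RefSeq table of windows from 250 bases before to 50 bases after each start (GRCm38.p6). The E-box CACGTG, which reads the same on both strands, was present in 11 of the 51 genes (21.6%), against 11.7% of the tested genes with a promoter and 8.09% of all genes in the table. A CTCF core of AGGGGGC or AGAGGGC or AGGTGGC or AGATGGC, on either strand, was present in 33.3% of the 51 genes, 39.3% of the tested genes and 30.2% of all genes. Genes with an E-box had a median log2 change of 1.33, and in 10 of 11 the conditions did not overlap, CTCF-KD being higher. The 40 genes with a promoter and no E-box had 1.03, with 27 of 40 (19.9% of all genes tested). A match of letters is no measure of binding. The windows of Nop2 (chr6:125131633-125131932, plus strand), Imp4 (chr1:34439579-34439878, plus strand) and Nle1 (chr11:82908346-82908645, minus strand) are shown because they had the highest limma statistics among the genes with an E-box, which is in capitals. The E-box began 60 bases before the start in Nop2, 121 bases before it in Imp4 and 23 bases after it in Nle1. The window of Noc4l (chr5:110653333-110653632, minus strand) holds no E-box and is shown because its gene had the highest statistic of all 59, while Ddx51, which starts 69 bases away on the other strand (chr5:110653451), was lower in CTCF-KD. The windows of these neighbours share 168 bases.
Nop2: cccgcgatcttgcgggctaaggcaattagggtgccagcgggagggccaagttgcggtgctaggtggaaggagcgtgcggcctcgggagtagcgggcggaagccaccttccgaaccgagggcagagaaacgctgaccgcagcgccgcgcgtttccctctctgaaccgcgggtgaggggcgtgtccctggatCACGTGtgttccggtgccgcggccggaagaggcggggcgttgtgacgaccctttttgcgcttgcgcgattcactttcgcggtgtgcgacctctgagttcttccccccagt
Imp4: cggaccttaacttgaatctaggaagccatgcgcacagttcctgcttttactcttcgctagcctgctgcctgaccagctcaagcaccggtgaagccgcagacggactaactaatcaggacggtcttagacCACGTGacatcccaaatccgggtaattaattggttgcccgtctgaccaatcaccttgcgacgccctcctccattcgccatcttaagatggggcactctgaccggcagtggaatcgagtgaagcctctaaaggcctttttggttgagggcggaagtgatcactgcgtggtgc
Nle1: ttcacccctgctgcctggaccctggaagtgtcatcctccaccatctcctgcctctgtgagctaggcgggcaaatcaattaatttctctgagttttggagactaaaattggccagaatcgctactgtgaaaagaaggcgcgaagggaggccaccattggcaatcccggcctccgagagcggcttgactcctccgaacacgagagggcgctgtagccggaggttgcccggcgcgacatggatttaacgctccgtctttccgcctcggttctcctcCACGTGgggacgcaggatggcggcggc
Noc4l: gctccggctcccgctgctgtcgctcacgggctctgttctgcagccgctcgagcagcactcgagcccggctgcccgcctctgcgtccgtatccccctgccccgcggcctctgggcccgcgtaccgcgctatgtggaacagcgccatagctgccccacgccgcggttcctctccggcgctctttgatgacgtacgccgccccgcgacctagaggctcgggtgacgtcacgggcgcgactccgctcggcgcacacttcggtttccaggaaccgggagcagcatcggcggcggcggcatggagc

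In the UTP-A complex, the first to bind the precursor, both CTCF-KD cultures lay above both WT cultures in 5 of 5 genes, with log2 changes of 0.54 to 1.35. Mean TPM of Wdr43, a WD40 repeat subunit, was 46.7 ± 53.4 in WT1, 95.4 ± 162 in WT2, 128 ± 92.3 in CTCFKD1 and 155 ± 137 in the culture labelled CTCFKD2 (log2 change 1.07, SE 0.46, adjusted p = 0.656), where ± is the SD over 24, 23, 24 and 24 cells here and for the genes that follow. Heatr1, a large repeat protein that also acts in transcription by RNA polymerase I, had 13.5 ± 29.3 in WT1, 9.95 ± 16.9 in WT2, 13.6 ± 17.6 in CTCFKD1 and 34.3 ± 40.7 in the culture labelled CTCFKD2 (log2 change 0.85, SE 0.78, adjusted p = 0.837). Its CTCFKD1 value exceeded that of WT1 by 0.0074 on the log2 scale only, so nearly all of the difference of Heatr1 was in experiment 2. The other 3 genes of the complex are Wdr75, with the largest log2 change of the step, Nol11 and Utp15, with the smallest.

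UTP-B, which links the U3 particle to the precursor, was higher in each CTCF-KD culture than in each WT culture in 3 of 6 genes. Mean TPM of Tbl3, a WD40 repeat subunit, was 25.2 ± 83.4 in WT1, 26.9 ± 73.8 in WT2, 162 ± 223 in CTCFKD1 and 112 ± 224 in the culture labelled CTCFKD2 (log2 change 2.33, SE 0.44, adjusted p = 0.585). Tbl3 thus was higher in both experiments, with log2 differences of 2.63 in experiment 1 and 2.02 in experiment 2, and its cultures were far apart between conditions and close within WT. Pwp2, another WD40 subunit, was low, with 9.93 ± 28.6 in WT1, 6.85 ± 26.02 in WT2, 31.2 ± 61.4 in CTCFKD1 and 19.7 ± 46.2 in the culture labelled CTCFKD2 (log2 change 1.48, SE 0.74, adjusted p = 0.702). Mean TPM of Utp18 was 12.3 ± 14 in WT1, 34.6 ± 42.4 in WT2, 17.1 ± 21.5 in CTCFKD1 and 26.7 ± 24.6 in the culture labelled CTCFKD2 (log2 change 0.041, SE 0.75, adjusted p = 0.997), the fourth lowest statistic of the 59, and its difference had opposite signs in the experiments. Wdr3, Wdr36 and Utp6 had log2 changes of 0.70 to 1.28. The Tbl3 exons overlap those of Noxo1 on the other strand, and where the counting did not use strand their reads cannot be told apart.

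The U3 and Mpp10 group showed no overlap between conditions in 4 of 4 genes. Mean TPM of Imp4, a Brix domain partner of Mpp10 that pairs U3 with the precursor, was 95.4 ± 148 in WT1, 52.4 ± 78.6 in WT2, 241 ± 194 in CTCFKD1 and 408 ± 322 in the culture labelled CTCFKD2 (log2 change 2.13, SE 0.45, adjusted p = 0.585). Its difference was larger in experiment 2, with log2 differences of 1.33 in experiment 1 and 2.94 in experiment 2. Mphosph10, the Mpp10 protein itself, had 33.9 ± 45.7 in WT1, 50.5 ± 71.7 in WT2, 61.4 ± 40.2 in CTCFKD1 and 112 ± 85.3 in the culture labelled CTCFKD2 (log2 change 0.99, SE 0.50, adjusted p = 0.709). Rrp9, a U3-specific WD40 protein, had 65.6 ± 225 in WT1, 38.4 ± 106 in WT2, 89.1 ± 152 in CTCFKD1 and 70.8 ± 107 in the culture labelled CTCFKD2 (log2 change 0.65, SE 0.47, adjusted p = 0.788), and Imp3, the other partner of Mpp10, a log2 change of 1.07. The log2 change of Imp4 was the largest of the group and that of Rrp9 the smallest.

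Among 12 further processome proteins, both CTCF-KD cultures were above both WT cultures in 6 and in none below, with log2 changes of -0.032 to 2.08. Mean TPM of Noc4l, which forms a module with Nop14, was 42.1 ± 97.8 in WT1, 42.6 ± 145 in WT2, 192 ± 172 in CTCFKD1 and 174 ± 143 in the culture labelled CTCFKD2 (log2 change 2.08, SE 0.37, adjusted p = 0.585). The WT cultures were nearly equal and both CTCF-KD cultures far above them, and Noc4l had the highest statistic of the 59 genes and the fifth highest of all 11980. Bysl, an adaptor that stays with the precursor until late, had 45.8 ± 65.9 in WT1, 29.8 ± 40.1 in WT2, 60.6 ± 55.02 in CTCFKD1 and 109 ± 130.4 in the culture labelled CTCFKD2 (log2 change 1.12, SE 0.51, adjusted p = 0.675). Emg1, a methyltransferase of the small subunit RNA, was the most abundant gene of the 59, with 698 ± 426 in WT1, 574 ± 442 in WT2, 861 ± 396 in CTCFKD1 and 744 ± 386 in the culture labelled CTCFKD2 (log2 change 0.34, SE 0.29, adjusted p = 0.82). The helicases Dhx37 and Ddx52 did not separate the conditions. Dhx37, which releases U3 from the precursor, had 12.5 ± 35.8 in WT1, 14.04 ± 43.6 in WT2, 27.1 ± 43.8 in CTCFKD1 and 5.92 ± 11.8 in the culture labelled CTCFKD2 (log2 change -0.032, SE 0.93, adjusted p = 0.999), higher in CTCFKD1 than in WT1 and lower in the culture labelled CTCFKD2 than in WT2. Ddx52 had 68 ± 64.3 in WT1, 97.2 ± 94.4 in WT2, 67.6 ± 46.2 in CTCFKD1 and 128 ± 157 in the culture labelled CTCFKD2 (log2 change 0.19, SE 0.47, adjusted p = 0.951), and its CTCFKD1 and WT1 values were nearly equal. Of the other 7 genes, Nop14, Nol10 and Utp20 separated the conditions, and Utp3, Nol6, Rcl1 and Ddx10 did not.

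Late small subunit factors separated the conditions in 4 of 5 genes. Mean TPM of Nob1, the nuclease that makes the final cut of the small subunit RNA, was 82.96 ± 157 in WT1, 56.3 ± 103 in WT2, 141 ± 207 in CTCFKD1 and 209 ± 188 in the culture labelled CTCFKD2 (log2 change 1.32, SE 0.41, adjusted p = 0.595). Pno1, its partner on the precursor, had 10.03 ± 34.8 in WT1, 28.9 ± 54.7 in WT2, 47.96 ± 51.2 in CTCFKD1 and 75.96 ± 62.9 in the culture labelled CTCFKD2 (log2 change 1.76, SE 0.67, adjusted p = 0.627). Both genes were higher in each CTCF-KD culture, with log2 differences for Pno1 of 2.15 in experiment 1 and 1.36 in experiment 2. Tsr1, a GTPase-like factor that blocks early translation by the new subunit, had 20.9 ± 50.2 in WT1, 74.4 ± 111 in WT2, 83.3 ± 81.1 in CTCFKD1 and 122 ± 139.9 in the culture labelled CTCFKD2 (log2 change 1.33, SE 0.66, adjusted p = 0.696). Rrp12 and Dimt1 had log2 changes of 0.84 and 0.77, and Dimt1 was the gene whose cultures overlapped.

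On the large subunit side, the PeBoW complex of Pes1, Bop1 and Wdr12, needed to mature the large subunit RNA, separated the conditions in 3 of 3 genes. Mean TPM of Bop1 was 51.6 ± 136 in WT1, 55.5 ± 155 in WT2, 133 ± 132 in CTCFKD1 and 199.96 ± 212 in the culture labelled CTCFKD2 (log2 change 1.59, SE 0.40, adjusted p = 0.585). Wdr12 had 43.2 ± 58.9 in WT1, 63.9 ± 104 in WT2, 98.9 ± 69.4 in CTCFKD1 and 135 ± 88.7 in the culture labelled CTCFKD2 (log2 change 1.12, SE 0.43, adjusted p = 0.627), and Pes1 had 62.8 ± 82.2 in WT1, 43.95 ± 52.3 in WT2, 89.4 ± 79.9 in CTCFKD1 and 89.9 ± 82.2 in the culture labelled CTCFKD2 (log2 change 0.76, SE 0.42, adjusted p = 0.743). The change of Bop1 was the largest of the complex and that of Pes1 the smallest, and Bop1 shares exon sequence with Mroh1 on the other strand.

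Early large subunit factors were higher in each CTCF-KD culture than in each WT culture in 10 of 13 genes and lower in 1. Mean TPM of Nop2, a methyltransferase of the large subunit RNA, was 25.9 ± 53.1 in WT1, 53.6 ± 143 in WT2, 231 ± 202 in CTCFKD1 and 208 ± 168 in the culture labelled CTCFKD2 (log2 change 2.52, SE 0.46, adjusted p = 0.585). Nop2, whose promoter with its E-box is shown above, had the next highest statistic after Noc4l and was detected in 8 of 24 cells of WT1, 10 of 23 of WT2, 20 of 24 of CTCFKD1 and 22 of 24 of the culture labelled CTCFKD2. Ebna1bp2, the counterpart of yeast Ebp2, had 55.8 ± 82.2 in WT1, 55.7 ± 58.9 in WT2, 148 ± 119.9 in CTCFKD1 and 190.4 ± 100.4 in the culture labelled CTCFKD2 (log2 change 1.57, SE 0.37, adjusted p = 0.585), with WT values that were nearly equal. Nop16 had 96.2 ± 146 in WT1, 119 ± 209 in WT2, 229 ± 142 in CTCFKD1 and 394 ± 251.3 in the culture labelled CTCFKD2 (log2 change 1.48, SE 0.39, adjusted p = 0.585). Brix1, the name-giving Brix domain protein, had 35.4 ± 36.9 in WT1, 92.8 ± 77.97 in WT2, 78.7 ± 47.4 in CTCFKD1 and 226 ± 145 in the culture labelled CTCFKD2 (log2 change 1.20, SE 0.68, adjusted p = 0.749), and its CTCFKD1 value lay below its WT2 value. Ppan, another Brix domain protein, had 7.66 ± 26.7 in WT1, 58.96 ± 149 in WT2, 129 ± 180.1 in CTCFKD1 and 94.05 ± 104 in the culture labelled CTCFKD2 (log2 change 2.29, SE 0.90, adjusted p = 0.630), with log2 differences of 3.91 in experiment 1 and 0.66 in experiment 2. The change of Ppan was thus mostly in experiment 1, and small nucleolar RNA genes lie within Ppan on the same strand. Urb2 went the other way, with 23.4 ± 69.96 in WT1, 13.1 ± 36.8 in WT2, 4.75 ± 9.46 in CTCFKD1 and 9.95 ± 23.5 in the culture labelled CTCFKD2 (log2 change -1.23, SE 0.84, adjusted p = 0.779), the lowest statistic of the 59. Its lower level did not hold for the average of logs. Averaged over cells, log2(TPM + 1) of Urb2 was 1.70 in WT1, 0.97 in WT2, 1.28 in CTCFKD1 and 1.33 in the culture labelled CTCFKD2, so that the conditions overlapped, and it was detected in 27.4% of WT cells and 35.4% of CTCF-KD cells. Among the other 7 genes the log2 changes were 0.35 to 1.91. The smallest was that of Rrp1, and its paralog Rrp1b had 1.47. Only unique alignments were kept, so any reads matching both copies equally would not be counted.

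Of the large subunit helicases, Ddx18 and Ddx27 separated the conditions with log2 changes of 0.76 and 1.38. Ddx51, the neighbour of Noc4l, was near the limit of detection, with 2.12 ± 7.05 in WT1, 3.94 ± 17.1 in WT2, 0.257 ± 0.881 in CTCFKD1 and 2.12 ± 7.43 in the culture labelled CTCFKD2 (log2 change -0.99, SE 0.80, adjusted p = 0.810). It was detected in 3 of 24 cells of WT1, 3 of 23 of WT2, 2 of 24 of CTCFKD1 and 4 of 24 of the culture labelled CTCFKD2, so its lower level rests on few cells. The GTPases of the large subunit are Gtpbp4 and Gnl2, which act in the nucleus, and Gnl3, also called nucleostemin. Mean TPM of Gnl3 was 49.6 ± 76.4 in WT1, 114 ± 137 in WT2, 159 ± 120.3 in CTCFKD1 and 349 ± 259 in the culture labelled CTCFKD2 (log2 change 1.64, SE 0.56, adjusted p = 0.610). Gnl3 overlaps small nucleolar RNA genes on its own strand and Pbrm1 on the other. Gnl2 had 17.2 ± 35.02 in WT1, 62.5 ± 102 in WT2, 73.98 ± 67.9 in CTCFKD1 and 105 ± 106 in the culture labelled CTCFKD2 (log2 change 1.39, SE 0.67, adjusted p = 0.696), and Gtpbp4 had 87.2 ± 127 in WT1, 119 ± 132 in WT2, 119 ± 85.3 in CTCFKD1 and 222 ± 121 in the culture labelled CTCFKD2 (log2 change 0.67, SE 0.44, adjusted p = 0.775). The Gtpbp4 values of CTCFKD1 and WT2 were nearly equal, and it was the GTPase whose cultures overlapped.

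In late remodelling of the large subunit, Wdr74, a partner of the remodelling ATPase Nvl, was the most abundant large subunit factor in CTCF-KD. Mean TPM of Wdr74 was 125 ± 197 in WT1, 274 ± 439 in WT2, 686 ± 550.1 in CTCFKD1 and 619 ± 418 in the culture labelled CTCFKD2 (log2 change 1.81, SE 0.43, adjusted p = 0.585). Nle1, the docking partner of the ATPase Mdn1, had the largest log2 change of the 59, from a WT level near 0, with 0.209 ± 1.03 in WT1, 2.85 ± 13.7 in WT2, 24.2 ± 36.1 in CTCFKD1 and 15.01 ± 28.3 in the culture labelled CTCFKD2 (log2 change 3.22, SE 0.99, adjusted p = 0.592). It was detected in 1 of 24 cells of WT1, 1 of 23 of WT2, 15 of 24 of CTCFKD1 and 9 of 24 of the culture labelled CTCFKD2, which are shares with exact binomial 95% intervals of 0.105 to 21.1%, 0.110 to 21.9%, 40.6 to 81.2% and 18.8 to 59.4%. These intervals cover counting error only. With 1 cell in each WT culture the fold of Nle1 is poorly determined, and its exons overlap Fndc8 on the other strand. Nol9, a kinase that prepares RNA ends of the spacer between the large subunit RNAs, had log2 differences of 3.35 in experiment 1 and -0.038 in experiment 2. Of the genes that act on both subunits, the helicase Ddx21 had 33.1 ± 33.2 in WT1, 40.9 ± 52.9 in WT2, 61.7 ± 51.2 in CTCFKD1 and 87.1 ± 70.01 in the culture labelled CTCFKD2 (log2 change 0.97, SE 0.46, adjusted p = 0.691). Mybbp1a, a nucleolar Myb-binding protein, had 14.7 ± 24.3 in WT1, 47.3 ± 78.4 in WT2, 88.04 ± 102 in CTCFKD1 and 98.5 ± 74.9 in the culture labelled CTCFKD2 (log2 change 1.77, SE 0.63, adjusted p = 0.610). Both separated the conditions. Over all steps, 26 of the 59 genes overlap exons on the other strand (GENCODE M21), with a median log2 change of 1.12. The 33 without such overlap had 1.19. Both CTCF-KD cultures lay above both WT cultures in 21 of the 26 and 22 of the 33 (19.9% of all genes tested).

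More cells held a read of nearly every assembly factor in CTCF-KD. The share of cells with a gene, as a median over the 59 genes, was 54.2% in WT1, 52.2% in WT2, 91.7% in CTCFKD1 and 87.5% in the culture labelled CTCFKD2. After all cells were thinned to 80000 reads, which left out 1 shallower cell of the culture labelled CTCFKD2, the medians of the expected shares were 45.8%, 45.3%, 80.8% and 85.6%. The median difference between conditions was 34.4 percentage points at equal depth, against 5.91 over all genes tested. Both CTCF-KD cultures had a higher share than both WT cultures in 56 of the 59 genes, against 46.4% of all genes. At equal depth Noc4l went from 23.7% of WT cells to 82.8% of CTCF-KD cells, Ppan from 16.7% of WT cells to 78.2% of CTCF-KD cells, and Pno1 from 21.8% of WT cells to 81.6% of CTCF-KD cells. Noc4l was detected in 8 of 24 cells of WT1, 4 of 23 of WT2, 19 of 24 of CTCFKD1 and 22 of 24 of the culture labelled CTCFKD2. Emg1 was found in all cells of every culture at full depth, and Ddx51 went from 10.2% of WT cells to 9.89% of CTCF-KD cells. In cells in which a gene was detected, the median log2 difference in its level between CTCF-KD and WT was 0.46 over the assembly factors and -0.24 over all genes. Levels within cells with the gene were lower in CTCF-KD for some genes that more cells held. Among them were Urb2 (-1.74 on the log2 scale), Rcl1 (-1.09), Nol6 (-0.90), Dhx37 (-0.79) and Rrp9 (-0.63). Ddx51, held by similar shares of cells, had -1.66.

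**Figure D3:**
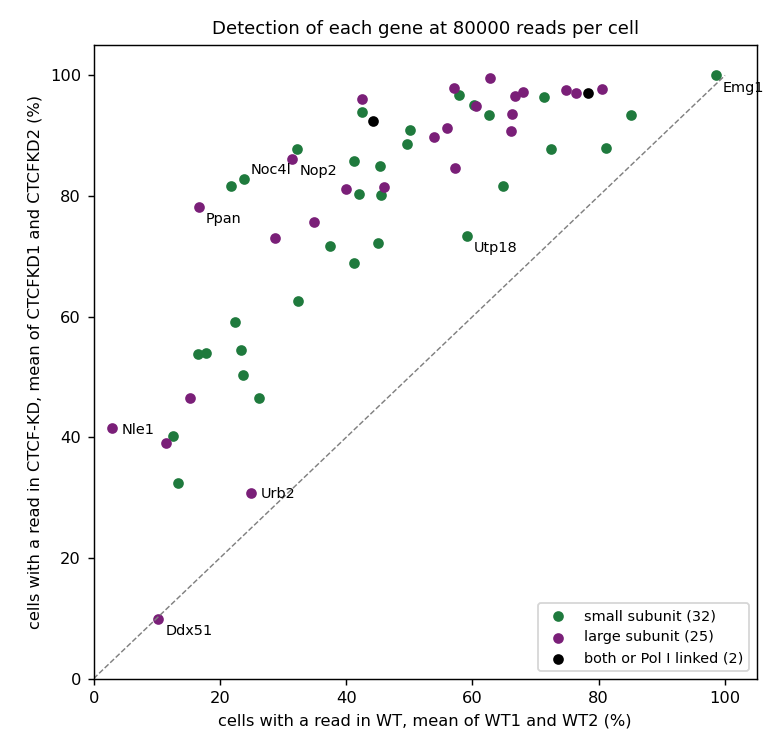
Share of cells with at least 1 read of a gene at 80000 reads per cell, in CTCF-KD (y axis) against WT (x axis), each the mean of 2 cultures, for 32 small subunit, 25 large subunit and 2 shared factors. All genes but Ddx51 lie above the dashed line of equal shares, with Emg1 at the upper end and Nle1 at the lower left.

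Summed over the 59 genes, the level per cell was 3073 ± 1098 TPM in WT1 (mean ± SD, 24 cells), 3558 ± 1389 in WT2 (23 cells), 6228 ± 1907 in CTCFKD1 (24 cells) and 7833 ± 1736 in the culture labelled CTCFKD2 (24 cells). The ratio of means was 2.03 in experiment 1 and 2.20 in experiment 2. Cells overlapped between the conditions. The highest WT cell held 6433 TPM, which 11 of 24 cells of CTCFKD1 and 20 of 24 cells of the culture labelled CTCFKD2 exceeded. The ratio was 1.74 and 2.06 for the small subunit factors in experiments 1 and 2, and 2.36 and 2.37 for the large subunit factors. As a share of reads the 59 genes took 0.363%, 0.391%, 0.774% and 0.903% on average in WT1, WT2, CTCFKD1 and the culture labelled CTCFKD2. At 80000 reads a cell held a median of 27 of the 59 genes in WT1, 27 in WT2, 46 in CTCFKD1 and 47 in the culture labelled CTCFKD2, with ranges of 12 to 41, 14 to 45, 32 to 55 and 33 to 56. The number of assembly factors in a thinned cell went with the number of all its genes, with Pearson's r of 0.54 in WT1, 0.84 in WT2, 0.63 in CTCFKD1 and 0.61 in the culture labelled CTCFKD2, over cells that share a culture and a circuit. When the slope on genes detected per cell within cultures was removed gene by gene, the median log2 change of the assembly factors was 1.43 on the scale of averaged log2(TPM + 1), compared with 2.17 before. Sums of small and large subunit factors in a cell had an r of 0.16 in WT1, 0.53 in WT2, 0.70 in CTCFKD1 and 0.30 in the culture labelled CTCFKD2, over 23 or 24 cells each.

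**Figure D4:**
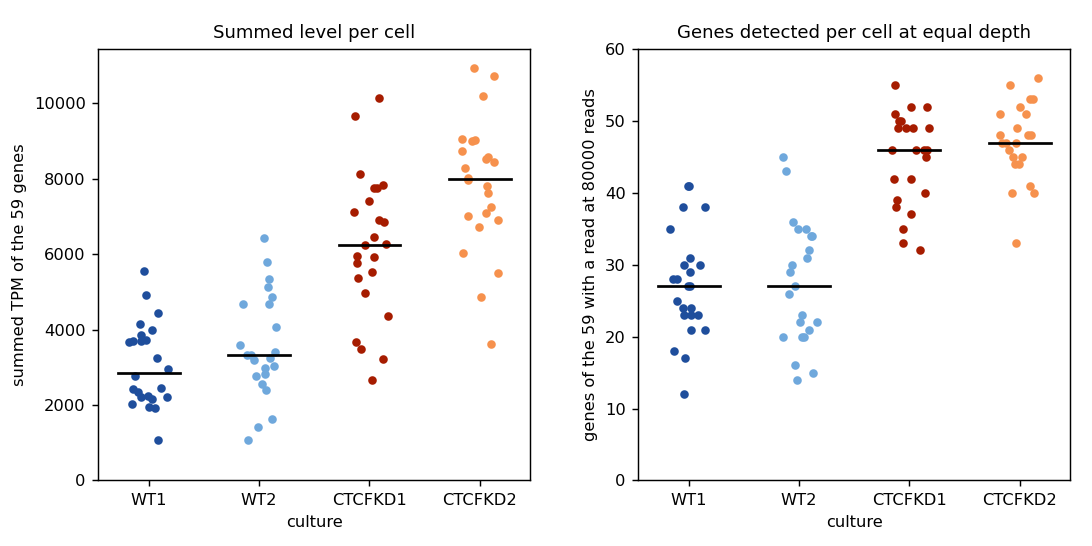
Summed TPM of the 59 genes per cell (left) and the number of them with a read after thinning to 80000 reads (right), for each culture, with 1 point per cell and a bar at the median. The medians on the right are 27 in WT1, 27 in WT2, 46 in CTCFKD1 and 47 in the culture labelled CTCFKD2.

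Cell-to-cell variation was measured by the coefficient of variation (CV) of a gene, which divides the SD of log2(TPM + 1) among cells of 1 condition by its mean, for genes with a mean above 1 over the cells of both conditions together. Of the 59 genes 58 were measured, all but Ddx51, and the CV was lower in CTCF-KD in all 58 (81.5% of 7843 genes). Their median CV was 1.09 in WT and 0.461 in CTCF-KD, against 1.07 and 0.801 over all genes measured. The mean was above 1 in each condition in 52 of them, and Nle1, Nol6, Noc3l, Rrs1, Pwp2 and Utp20 entered through a mean above 1 in CTCF-KD only, which makes a lower CV there likely by selection. Over the 52 the median CV was 1.03 in WT and 0.433 in CTCF-KD. By the rule that calls a gene when its CV difference lies more than 1 SD from the mean difference, 21 had decreased CV (11.3% of all genes) and 0 increased CV (7.68%). The rule has no replicate error. Of the 21, 16 were among the 52 genes above 1 in each condition, against 6.88% of the 7126 genes of that kind. Over all 58 genes the rule called 18 decreased in experiment 1 alone (11.1% of all genes) and 20 in experiment 2 alone (11.1%). The largest decreases were those of Nle1, whose CV was 5.18 in WT and 1.10 in CTCF-KD, and Ppan, with 2.17 in WT and 0.502 in CTCF-KD. The WT value of Nle1 was fixed by its detection in 1 cell of each WT culture and measures detection, not spread of level. None of the 58 had a higher CV, and the smallest decreases were those of Emg1, with 0.152 in WT and 0.0804 in CTCF-KD, and Ddx52, with 0.502 in WT and 0.431 in CTCF-KD. With limma on the CV of each culture, 25 of the 58 genes, all among the 52, were called decreased at an adjusted p under 0.05, against 4.14% of 7823 genes.

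CV falls as the mean rises in these data, and the 21 genes with decreased CV had low WT means, at most 2.94 and with a median of 1.61 on the log2(TPM + 1) scale, while the 37 without a call had a median of 3.69. Set against the CV expected from the mean, a running median over genes in each condition, the median difference of the 58 genes was -0.014 in place of -0.579. By the same rule 7 genes were then decreased (8.62% of all genes) and 3 increased (9.83%), shares near those of all genes. In limma on culture CV relative to that expectation, 0 of 7823 genes (0.0%) were called, with 5 of the 58 assembly factors and 361 of all genes at an unadjusted p under 0.05. Most points of the assembly factors lay along the running median in both conditions when CV was plotted against the mean.

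**Figure D5:**
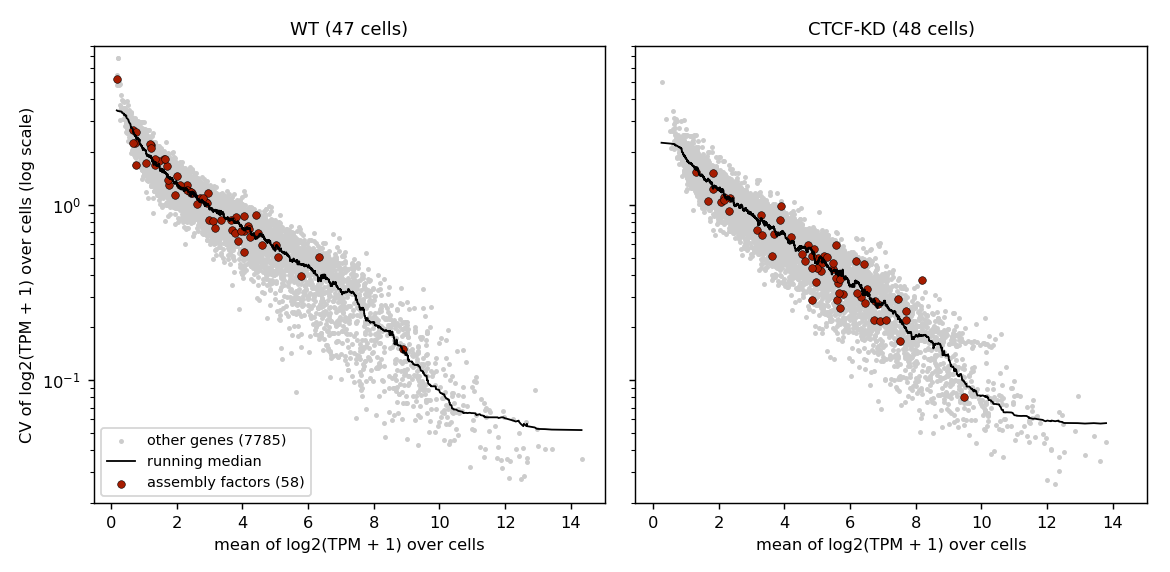
CV of log2(TPM + 1) over cells (log scale) against its mean, in 47 WT cells (left) and 48 CTCF-KD cells (right), for 58 assembly factors (red) and 7785 other genes (grey). The line is the running median over genes. The red points move right and down along the line from a median CV of 1.09 in WT to 0.461 in CTCF-KD.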

How the data were processed

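The authors aligned single-cell reads to GRCm38 with STAR, kept unique alignments, counted them on 24057 RefSeq genes with HTSeq and deposited TPM values for all 96 cells. TPM is scaled by gene length and by the total of each cell. Whether counting used strand is not given in the sources used here, and no molecular identifiers are described.

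Of the cells, 95 with at least 3000 genes were kept. Whole reads were recovered from the deposited TPM as the common step of each gene (tolerance 0.001, all 13334 genes with a value) and used for depth and for thinning to 80000 reads. Cells of a culture are not replicates, so log2(mean TPM + 1) per culture was tested with limma 3.58.1 in R 4.3.3 (trend, two-sided, Benjamini-Hochberg adjustment over the genes whose log2(TPM + 1) exceeded 1 in 2 cells or more, threshold 0.05). The labels give only a culture number, and the p-values measure the spread between these cultures. The main fit did not pair the cultures by experiment, which the replicate block did. CV followed the study's rule, and the running median took 50 genes on either side. Scripts were tested on simulated data.

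Culture numbers mark the initial experiment and the second knockdown in the study's methods and so pair the cultures. The difference between WT cultures correlated with that between CTCF-KD cultures across 11980 genes with r = 0.18.

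The 59 genes and the lists were chosen with earlier results of these data known. Values by culture are given for the 8 highest and 4 lowest limma statistics, 22 genes fixed by role, and the 2 genes at each end of the CV difference. Alternatives were another scale, other pseudocounts and filters, a replicate block, leaving out cultures, every cell kept, median centring, removal of genes detected, thinned reads, other CV scales and minimums, CV relative to its expectation and other detection limits. Added after seeing the data were leaving out the highest cell, experiment 1 alone, and limma on relative CV. RefSeq promoters and GENCODE M21 gave sequences and overlaps.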

Additional observations from a re-analysis of the deposited data

Results flagged for a closer look

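In 7 assembly factors the difference between CTCF-KD and WT had opposite signs in experiments 1 and 2. With 1 culture per condition in each experiment, these disagreements were not tested. The change in experiment 2 minus that in experiment 1, on the log2(mean TPM + 1) scale, was -3.39 for Nol9 (3.35 in experiment 1 and -0.038 in experiment 2) and -2.18 for Dhx37 (1.06 and -1.12). It was -0.81 for Utp18 (0.45 and -0.36). It was positive for Rcl1, at 1.49 (-0.033 and 1.46), and for Rrp1, at 1.08 (-0.18 and 0.89). Ddx10 differed by 0.98 (-0.100 and 0.88) and Ddx52 by 0.40 (-0.0085 and 0.39). Ctcf itself differed by -1.85 in experiment 1 and 0.27 in experiment 2.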

How the results depend on the processing

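Under the mean over cells of log2(TPM + 1), 44 genes were called higher and 2 lower, with 7 assembly factors higher, and no other fit of levels called any gene. The replicate block called 0 genes, as did the fit without it, and changed no call. The conditions did not overlap, CTCF-KD being higher, for 43 to 55 assembly factors over the alternatives. Without 1 culture the count was 45 to 53, but with fewer cultures to compare it can only stay at 43 or rise. The share of all genes was 19.9% in the main fit and was not counted under these alternatives, so these counts lack a background. The 55 was for the mean of logs, where the median log2 change over all genes was 0.23, against 0.038 in the main fit. The median log2 change of the assembly factors was 2.17 for the mean of logs and 1.43 on that same scale with genes detected removed. Values of single genes with genes detected removed, given below, are also on that scale. For the log2 of the mean it was 0.92 with a pseudocount of 10, 1.16 with every cell kept and 1.07 with median centring. The median was 1.42 without the highest cell, 1.15 for thinned reads, 1.10 in experiment 1 alone and 0.88 to 1.41 without 1 culture. Without the culture labelled CTCFKD2 it was 0.88. The direction of 3 named genes turned under some alternatives. Dhx37 had 0.83 for the mean of logs, 0.063 with a pseudocount of 10, 0.17 with genes detected removed, 0.56 without the highest cell and -1.04 to 0.98 without 1 culture. Utp18 had -0.00018 with a pseudocount of 10, -0.015 with median centring, -0.030 with genes detected removed, -0.0022 without the highest cell and -0.67 to 0.75 without 1 culture. Ddx52 had -0.55 with genes detected removed and -0.26 to 0.65 without 1 culture. The other 30 named genes kept their direction, but leaving out 1 culture moved 16 of them by over 1.5 times. Without WT1, Tsr1 had 0.43, Gnl2 0.49, Brix1 0.52, Wdr43 0.56, Ppan 0.89, Mybbp1a 0.96, Pno1 1.04, Gnl3 1.04 and Rrp9 1.03. Without WT2, Emg1 had 0.20, Rrp9 0.27, Ddx51 -0.66, Brix1 1.89, Tsr1 2.22, Gnl2 2.29 and Ppan 3.68. Without CTCFKD1, Ddx51 had -0.33, Urb2 -0.76, Gtpbp4 1.12, Heatr1 1.49 and Brix1 1.96. Without the culture labelled CTCFKD2, Heatr1 had 0.21, Gtpbp4 0.22, Brix1 0.45, Mphosph10 0.56, Bysl 0.70, Gnl3 1.07 and Ddx51 -1.64. Genes with decreased CV numbered 7, and 3 had increased CV, relative to the CV expected from the mean, and 0 were decreased in limma on that measure. With a pseudocount of 10, 23 of the 58 measured genes were decreased (13.87% of all genes) and 7 increased (13.02% of all genes). The median CV difference was -0.77 for linear TPM, -0.074 with a pseudocount of 10, -0.014 relative to the expected CV and -0.023 for its culture values. The median difference in detection was 29.7 percentage points at full depth, 32.1 for TPM above 10, 34.4 for thinned reads and 28.1 to 31.3 without 1 culture. The causes were not tested. With 2 cultures per condition and a lower depth in the culture labelled CTCFKD2, single genes are measured with limited precision. The SE of the log2 change reached 0.998 (Nol9). Relative spread over cells was wider in WT, with a median CV of the 58 measured genes of 1.10 in WT1 and 1.05 in WT2. It was 0.479 in CTCFKD1 and 0.439 in the culture labelled CTCFKD2.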
